A study of Drosophila melanogaster with 9 samples.

Results

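Neuropeptides and peptide hormones are short secreted signals that are cut out of larger precursor proteins. They are made in neurons and endocrine cells, in some cases only a few cells per brain, and most act through G protein-coupled receptors on feeding, sleep, mating, stress and water balance. In the adult fly brain a single peptide can mark a single cell group, as Pdf does for clock neurons and SIFa for a cluster in the pars intercerebralis. The genes described here are the 36 precursors of a neuropeptide and peptide hormone list from which the insulin-like peptides were left out. Of these, 30 had a probe set annotated to that gene alone, each exactly 1, among 11982 such genes on the array. The other 6 (AstA, Tk, Pburs, Hug, Dsk and RYa) were not analysed here. A filter on low signals kept 27 of the 30 among 8171 genes tested. Lk, Burs and amn did not pass it.

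The samples were dissected Drosophila melanogaster brains from naturally aged flies kept on cornmeal molasses medium at 25 °C, with 3 arrays each at 3, 30 and 60 days of age (3d, 30d and 60d). Each array was an Affymetrix Drosophila 2.0 array hybridised with amplified, biotin-labelled target. No strain, genotype or sex is given in the labels used here, and nothing in them says whether the replicates came from separate flies or pools, so the p-values reflect the spread among these 9 arrays and no more. In bulk tissue, fewer cells of a type and less RNA per cell cannot be told apart. Values below are deposited signals, which are linear, and changes are differences of log2(signal + 1) with their standard error (SE) from limma, fitted to all 9 arrays. A gene is said to rise, fall or pass where its adjusted p, over all 8171 genes, was under 0.05.

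The arrays differed in ways that touch every result below. Every 30d array had a higher median signal (76.1 to 78.3) than every 3d array (60.6 to 67.6), while the 60d arrays stood at 66.5, 77.01 and 74.3. The median gene varied more among replicates at 3d (SD 0.23) and 60d (0.21) than at 30d (0.09). On the first principal component, which held 53.2% of the variance, 60d replicate 1 lay at -11.6, nearer to the 3d arrays than its 2 companions at 21.7 and 7.09. The first 3d array had a GAPDH 3' to 5' log2 ratio of 5.03, against 1.58 to 2.07 on the others. Of 7 neuronal markers 6 were tested. In limma 0 passed at 60d or 30d against 3d, where 18.5% and 42.3% of all genes passed. Before adjustment nSyb alone had a p under 0.05 in each, with changes of -0.76 and -0.65 (adjusted p = 0.0567 and 0.0581). The summed signal of the neuronal markers was 3467 to 4111 at 3d, 3434 to 3793 at 30d and 3227 to 3835 at 60d. Antp, the marker of the ventral nerve cord with a probe set of its own, read 733 to 1688 over the 9 arrays. It did not pass in either comparison, and the other 3 such markers were not analysed here.

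**Figure D1:**
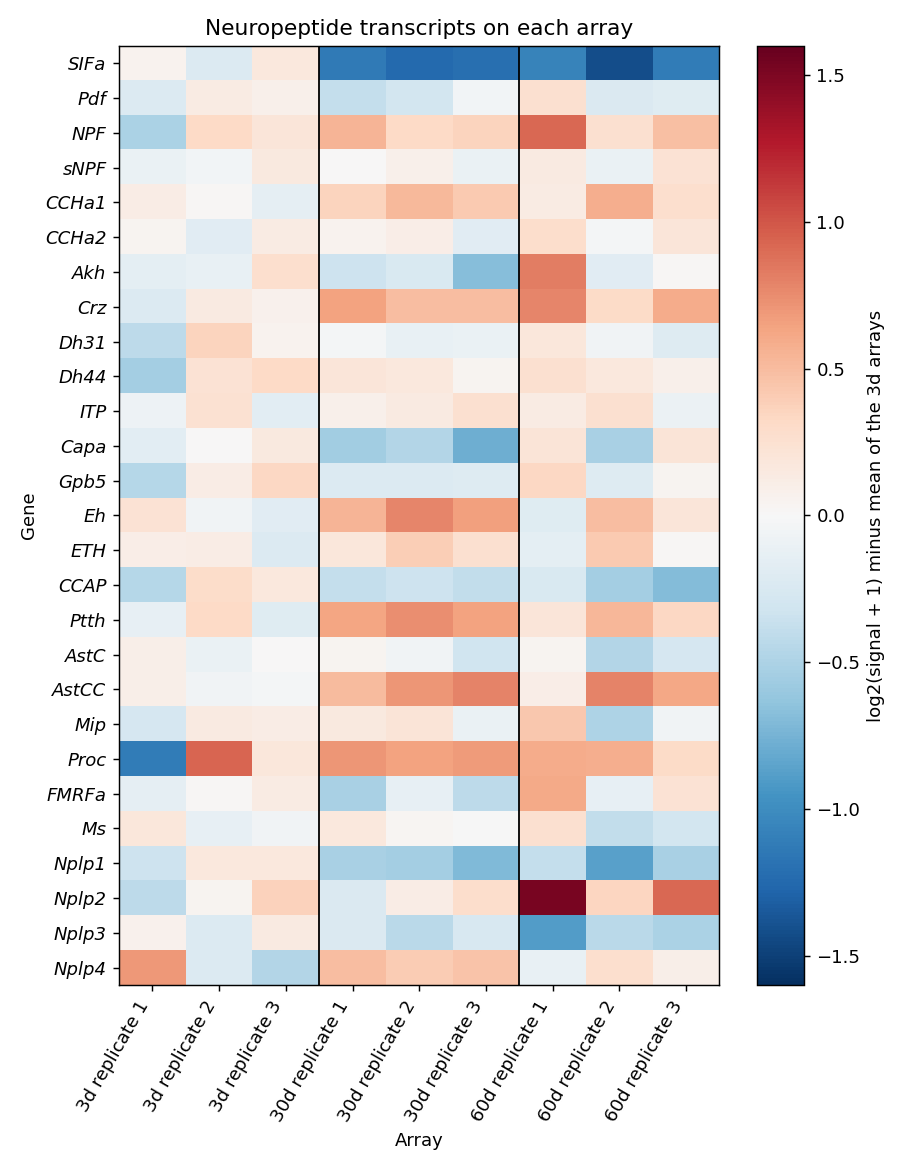
Heat map of log2(signal + 1) minus the gene's 3d mean for each of the 27 neuropeptide and hormone genes tested (rows) on each of the 9 arrays (columns). SIFa is below its 3d mean on all 6 arrays of 30d and 60d, and Crz and AstCC are above theirs on all 6.

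In the fit to all 9 arrays, old brains carried less SIFa, Nplp1 and Nplp3 transcript than young brains and more Crz and Nplp2. Most precursor genes did not pass. With only the 6 arrays of the 2 ages fitted, SIFa alone of the 27 passed, where 6.61% of all genes did. With single arrays left out, Nplp1, Nplp2 and Crz each lost the call in 7 of 9 fits, Nplp3 in 2 and SIFa in 0. Quantile normalization kept all 5 calls. Both rises were lost with each array centred on its median (adjusted p = 0.161 and 0.091), and the 3 falls were not. That centring lowers every change by 0.17 by construction, so it could only enlarge a fall. In the 60d against 3d comparison 5 of the 27 genes passed, or 18.5%, against a background of 18.5% of all genes tested, so the list was called as often as the array as a whole. Crz and Nplp2 rose, and SIFa, Nplp1 and Nplp3 fell, where 8.03% of all genes rose and 10.5% fell. The median change of the 27 was 0.09, beside 0.04 for all genes tested. The comparison of 30d against 3d called 8 of the 27, or 29.6%, below the background of 42.3%. There AstCC, CCHa1, Crz, Eh and Ptth rose, and SIFa, Nplp1 and Capa fell, where 21% of all genes rose and 21.3% fell. The median of the 27 was 0.05, and that of all genes was -0.01. The arrays of the 2 ages did not overlap for 6 of the 27 at 60d against 3d (31.1% of all genes) and for 11 at 30d against 3d (57.9%). These comparisons share the 3d arrays. Of the 27 genes 10 passed in at least 1 comparison and 17 in none. Of all genes 42.3% passed at 30d against 3d alone, so at least that share passed in 1 or more.

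SIFa encodes a peptide of a few pars intercerebralis neurons that is known for roles in courtship, sleep and feeding. It gave signals of 217, 181 and 235 on the 3d arrays, 95.5, 88.3 and 89.96 at 30d, and 99.7, 77.7 and 96.4 at 60d. The lowest 3d array was thus well above the highest array of either later age, and the 30d and 60d arrays overlapped. The change from 3d was -1.20 ± 0.15 at 60d, which is 2.30-fold lower (adjusted p = 0.00076), and -1.19 ± 0.15 at 30d (adjusted p = 0.00176). SIFa was the only one of the 27 to change by more than 2-fold from 3d in either comparison. It passed in 18 of 18 alternative treatments of the data in each, with changes from -1.37 to -0.98 at 60d and from -1.45 to -0.97 at 30d. Of these, the lowest-mean probe set could not move the estimate, because SIFa has 1 probe set. Between 30d and 60d its change was -0.01 (95% interval -0.34 to 0.32).

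SIFaR, the receptor of SIFa, had signals of 128, 156 and 145 at 3d, 190, 197 and 176 at 30d, and 171, 167 and 169 at 60d. All 6 later arrays lay above all 3 of the 3d arrays. The receptor rose by 0.39 ± 0.13 at 30d (adjusted p = 0.0322), and its change at 60d was 0.24 ± 0.13 (adjusted p = 0.2). With each array centred on its median the 30d change was 0.13 (adjusted p = 0.504), so the call depends on the scaling, and quantile normalization also ended it (adjusted p = 0.0552). It was lost as well without 3d replicate 3, any 1 of the 30d arrays or 60d replicate 3 (adjusted p from 0.0524 to 0.12).

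Crz encodes corazonin, a peptide of dorsolateral brain neurons that is known for its part in stress and metabolism. Its signals were 651, 837 and 791 at 3d, 1184, 1066 and 1068 at 30d, and 1298, 933 and 1136 at 60d. No later array fell within the 3d range. The rise was 0.56 ± 0.16 at 60d (adjusted p = 0.0323) and 0.55 ± 0.16 at 30d (adjusted p = 0.0195). With quantile normalization both rises passed (0.68 at 60d, adjusted p = 0.00989, and 0.69 at 30d, adjusted p = 0.005). Median centring left 0.39 at 60d (adjusted p = 0.161) and 0.29 at 30d (adjusted p = 0.224), and neither passed. The 60d call was also lost on leaving out any 1 array other than 3d replicate 2 or 60d replicate 2 (adjusted p from 0.0537 to 0.109), the 30d arrays included, which serve that comparison only through the shared spread. The 30d call was lost without any 1 of the 30d arrays (adjusted p from 0.0555 to 0.0716). The receptor CrzR was not analysed here.

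The genes Nplp1 to Nplp4 are named after precursors whose peptides were detected in fly nervous tissue. Nplp1, the source of several amidated peptides, had signals of 386, 548 and 549 at 3d, 340, 335 and 299 at 30d, and 373, 267.5 and 341 at 60d. The first 3d array was close to the upper end of the later ages, but the ranges did not overlap. It fell by 0.59 ± 0.18 at 60d (adjusted p = 0.0408) and by 0.59 ± 0.18 at 30d (adjusted p = 0.0226). The 60d call held in 8 of 18 alternatives and was lost on leaving out any 1 array other than the first of 3d or of 60d (adjusted p from 0.0634 to 0.138). The 30d call held in 13 of 18, and was lost without 3d replicate 2 or 3 or any 1 of the 30d arrays (adjusted p from 0.0533 to 0.0889). Gyc76C, the receptor guanylyl cyclase of an Nplp1 peptide, was not analysed here.

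Nplp3 had signals of 201, 164 and 212 at 3d, 163, 141 and 160 at 30d, and 103, 142 and 135 at 60d. The 60d arrays were all below the 3d arrays, with the 30d arrays between them or level with the higher 60d arrays. The fall at 60d was 0.61 ± 0.16 on the log2 scale (adjusted p = 0.026), which held in 15 of 18 alternatives. It was not called without 3d replicate 3 or 60d replicate 3 (adjusted p from 0.0655 to 0.0974). At 30d the change was -0.31 ± 0.16 (adjusted p = 0.142).

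Nplp2 had signals of 506, 702 and 878 at 3d, 575, 737 and 822.5 at 30d, and 1939, 862 and 1281 at 60d. One 60d array, replicate 2, lay inside the 3d range, and replicate 1 was highest by far. The rise at 60d was 0.93 ± 0.28, or 1.90-fold (adjusted p = 0.0419), and the change from 30d to 60d was 0.87 ± 0.28 (adjusted p = 0.205). Of 18 alternatives for 60d against 3d, 6 kept the call, quantile normalization among them (1.03, adjusted p = 0.0197). It was lost on leaving out any 1 array other than 3d replicate 3 or 60d replicate 2 (adjusted p from 0.0566 to 0.114), and without 60d replicate 1 the change was 0.63. The summed signal of 8 head fat body markers, of which 6 were tested and 1 rose, was 14051, 6420 and 10056 on 60d replicates 1, 2 and 3, the same order as Nplp2. That sum ran from 6671 to 8201 at 3d and from 5776 to 7084 at 30d, and 0 of the 8 markers were at 0 on all arrays. Its part in the Nplp2 result was not tested. Nplp4 had changes of 0.08 ± 0.25 at 60d and 0.45 ± 0.25 at 30d (adjusted p = 0.842 and 0.153), and its first 3d array (167) stood above the other 2 (88.3 and 74.5).

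**Figure D2:**
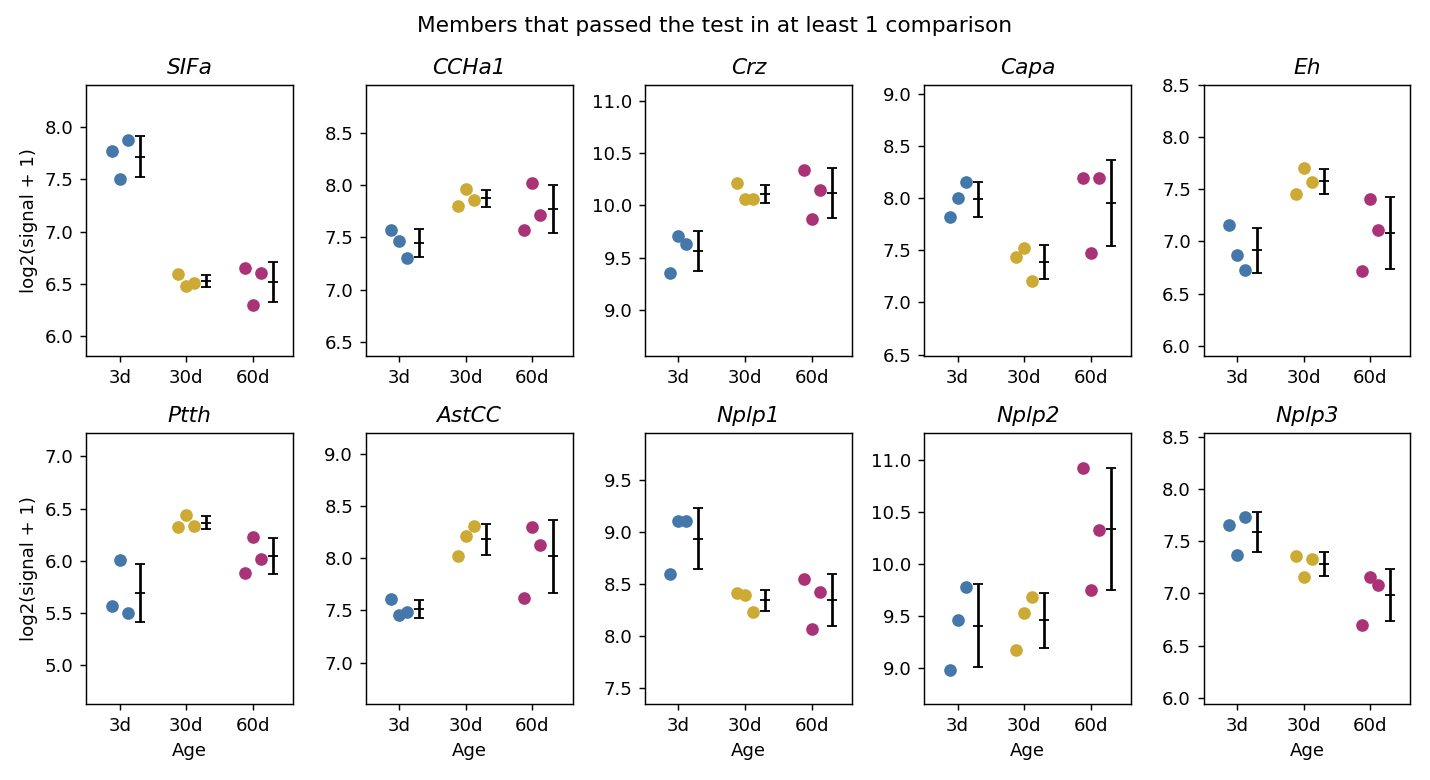
Signals of the 10 genes that passed in at least 1 comparison, as log2(signal + 1) at 3d, 30d and 60d. Points are single arrays, bars are mean ± SD with n = 3, and every panel spans the same number of log2 units. SIFa drops between 3d and 30d and stays at that level, and in Eh and Ptth the 30d arrays are above all others.

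AstCC, a paralogue of the C-type allatostatin AstC and its annotated neighbour, rose at 30d. Signals were 194, 174 and 178 at 3d, 258, 296 and 316.5 at 30d, and 196, 315 and 279 at 60d. All later arrays exceeded the 3d arrays, although 60d replicate 1 did so only just. The change was 0.67 ± 0.18 at 30d (adjusted p = 0.0142), which did not pass with median centring (0.41, adjusted p = 0.0626) or without 30d replicate 2 or 3 (adjusted p from 0.0521 to 0.0612). The 30d change passed with quantile normalization (0.67, adjusted p = 0.0134). At 60d it was 0.50 ± 0.18 (adjusted p = 0.0671). AstC itself, which restrains juvenile hormone synthesis in other insects, had a change of -0.11 at 30d and of -0.23 at 60d (95% interval -0.59 to 0.13). AstC-R1, a receptor of AstC, did not pass at 30d (0.34 ± 0.29, adjusted p = 0.351), and it read 84.9 on 3d replicate 1 against 231 and 203 on the other 3d arrays.

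Ptth, the hormone that drives steroid release in larvae, was dim. Its signals were 46.3, 63.3 and 44.2 at 3d, 79.25, 85.5 and 79.7 at 30d, and 58.2, 73.9 and 63.9 at 60d. The 30d arrays were above all others, and 2 of the 3d arrays lay below the filter value. The rise at 30d was 0.68 ± 0.16 (adjusted p = 0.00961) and passed in 17 of 17 alternatives, with 0.42 after median centring (adjusted p = 0.0459). It was among the dimmest of 3 equal bins of genes by mean signal, where the median change of all genes at 30d was 0.28. At 60d the change was 0.35 ± 0.16 (adjusted p = 0.14). Its receptor tor did not pass the filter. The steroid enzyme gene spok, the 1 tested of 4 ring gland markers with a probe set, rose by 0.81 at 30d (adjusted p = 0.00715), and the summed signal of those markers was 100 to 135 at 3d and 153 to 178 at 30d. Their part in the Ptth result was not tested.

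Eh, or eclosion hormone, which triggers moulting behaviour, had signals of 141, 116 and 105 at 3d, 174.5, 207 and 190 at 30d, and 104.5, 169 and 137.5 at 60d. The 30d arrays were highest, and the 60d arrays reached from just under the lowest 3d array to beyond the highest. It rose by 0.66 ± 0.19 at 30d (adjusted p = 0.0176). Quantile normalization kept the rise (0.57, adjusted p = 0.022). With median centring the change was 0.40 and did not pass (adjusted p = 0.0726). The call was also lost without 3d replicate 3, 30d replicate 2 or 30d replicate 3 (adjusted p from 0.0573 to 0.0725). At 60d it was 0.16 ± 0.19 (adjusted p = 0.551).

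CCHa1, a brain and gut peptide with known roles in sleep and the clock, had signals of 189, 176 and 157 at 3d, 223, 249 and 231 at 30d, and 189, 259 and 209 at 60d. The 30d arrays were all above the 3d arrays, and 60d replicate 1 was level with the highest 3d array. The rise at 30d was 0.43 ± 0.15 (adjusted p = 0.038) and held in 9 of 18 alternatives. It was 0.40 with quantile normalization (adjusted p = 0.0428) and came to 0.17 with median centring (adjusted p = 0.361). The call was lost without 3d replicate 2 or 3, any 1 of the 30d arrays or 60d replicate 3 (adjusted p from 0.0578 to 0.138). The receptor CCHa1-R read 47.8, 65.2 and 55.3 at 3d, 82.1, 80.1 and 72.5 at 30d, and 56.0, 76.1 and 67.9 at 60d. It was higher on every 30d array than on any 3d array. It rose by 0.48 ± 0.16 at 30d (adjusted p = 0.0329), a call that ended with median centring (0.22, adjusted p = 0.268) and with quantile normalization (0.20, adjusted p = 0.25). CCHa2, the related nutrient-sensitive peptide, had a change of -0.01 at 30d (95% interval -0.33 to 0.32), and its receptor did not pass the filter.

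Capa, the precursor of peptides that act on the renal tubules, had signals of 225, 255 and 283 at 3d, 172, 183 and 146.5 at 30d, and 291, 177 and 291 at 60d. The 30d arrays were below all 3d arrays, and at 60d replicate 2 sat with the 30d arrays while the other 2 lay above the 3d arrays. The fall at 30d was 0.60 ± 0.20 on the log2 scale (adjusted p = 0.0314) and held in 12 of 18 alternatives. It was lost without 3d replicate 2 or 3 or any 1 of the 30d arrays (adjusted p from 0.0599 to 0.117). The change at 60d against 3d was -0.04 ± 0.20 (adjusted p = 0.912). The receptor CapaR was not analysed here, and PK1-R, a receptor for another Capa peptide, did not pass the filter.

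Between 30d and 60d, limma passed 0 of the 27 genes, where 0.538% of all genes passed (0.526% rose and 0.0122% fell). Before adjustment p was under 0.05 for 5 of the 27, of which Nplp2, Capa, Akh and FMRFa were higher and Eh was lower. Of all 8171 genes, 797 were higher and 438 lower at that level. The arrays did not overlap for 7 of the 27, beside 27.3% of all genes. The largest difference was that of Nplp2 (0.87), and the median of the 27 was -0.01. For 22 of them the 95% interval lay within a 2-fold change in either direction. Leaving out 60d replicate 2 let Capa, FMRFa and Nplp2 pass, where the background then was 6.14%. Akh, the hormone of the corpora cardiaca that releases stored fuel, read 174, 178 and 234 at 3d, 154, 163 and 120 at 30d, and 343, 170 and 196.5 at 60d. FMRFa, a precursor of RFamide peptides, read 111, 124 and 135 at 3d, 85.5, 112 and 92.0 at 30d, and 187, 113 and 145 at 60d. Capa, Akh and FMRFa were lowest at 60d on replicate 2 and, for Akh and FMRFa, highest on replicate 1, as was the fat body marker sum given above, whose part in these values was not tested.

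Whether a gene moved differently in the earlier and the later interval was tested directly, as the change from 30d to 60d minus the change from 3d to 30d. Of the 27 genes 4 passed (14.8%), against 18.4% of all genes. The difference was positive for 2 of them (10.1% of all genes) and negative for 2 (8.3%). SIFa had a difference of 1.19 ± 0.26 (adjusted p = 0.0316), having dropped over the first interval with a change of -0.01 over the second. For Capa the difference was 1.17 ± 0.34 (adjusted p = 0.0427), with a change of -0.60 in the first interval and of 0.57 in the second. Eh and Ptth had differences of -1.15 ± 0.32 and -0.997 ± 0.280 (adjusted p = 0.0387 and 0.0389), with changes of 0.66 and 0.68 in the first interval and of -0.49 and -0.32 in the second. The 30d arrays enter both intervals with opposite sign, and the array medians shifted by 0.26 in the first interval and by -0.09 in the second. Median centring takes out that shift, -0.35 in this contrast, so it could only raise a positive difference. With it SIFa and Capa still passed, and Eh and Ptth did not (adjusted p = 0.0573 and 0.0836). With quantile normalization SIFa, Capa and Eh passed, and Ptth did not (adjusted p = 0.0649). Without 3d replicate 3, any 1 of the 30d arrays or 60d replicate 3, limma called 0 of the 27, and at most 1 of all genes.

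**Figure D3:**
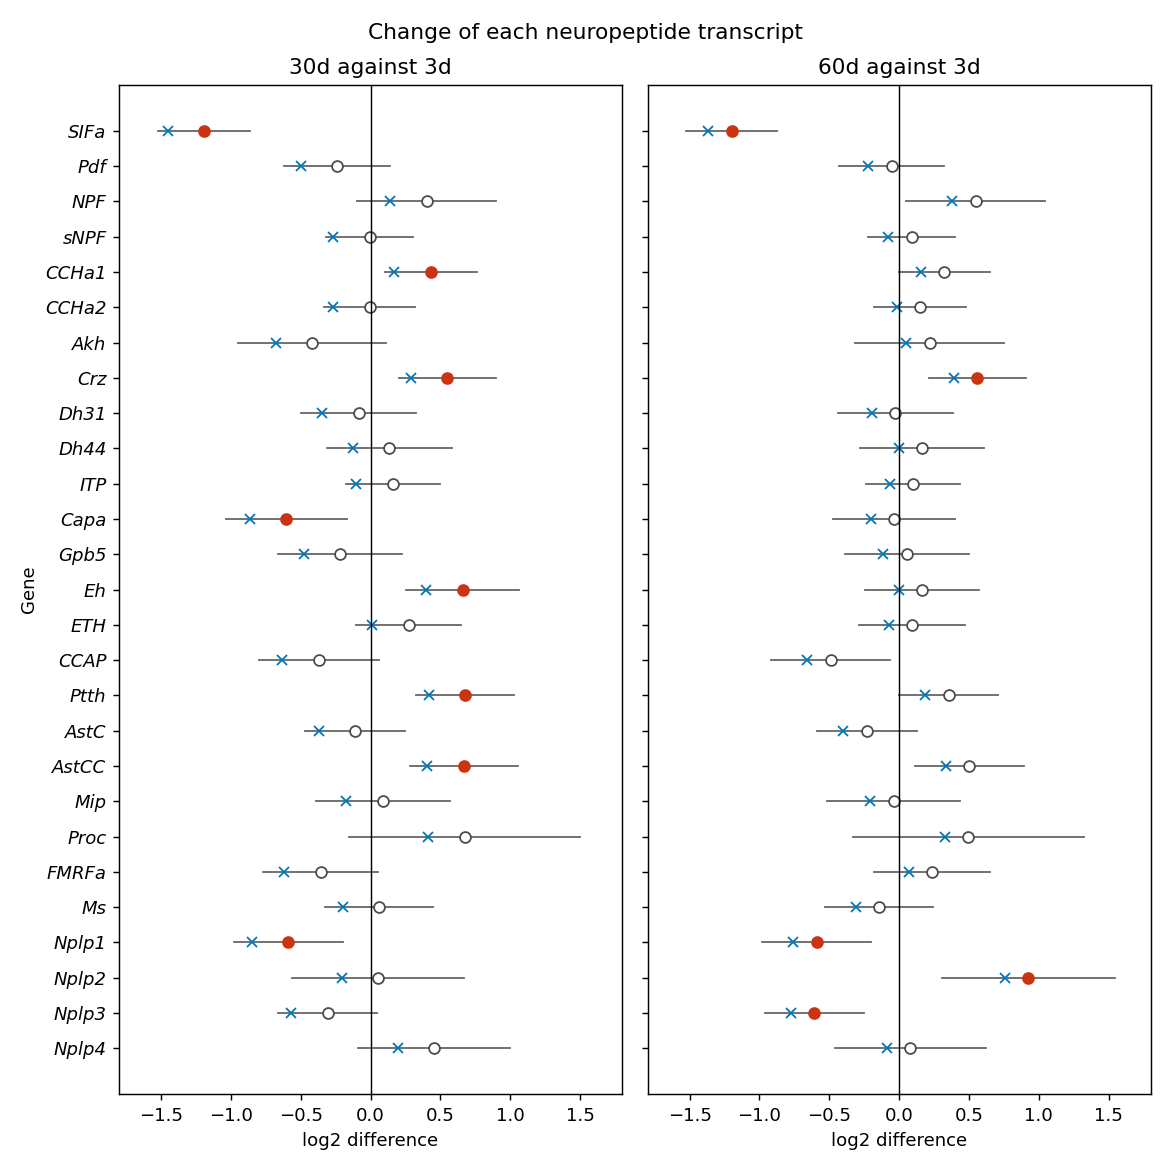
Log2 difference of each of the 27 genes at 30d against 3d and at 60d against 3d. Filled points passed, open points did not, lines are 95% intervals, and crosses are the values with each array centred on its median. SIFa lies furthest below 0 in both panels, and centring moves every gene down by the same amount within a panel.

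Centring each array on its median lowered every change by 0.17 at 60d against 3d and by 0.26 at 30d against 3d, by its construction. A positive difference smaller than that thus turned negative, and every fall grew. Without centring the median change of all genes tested was 0.04 at 60d and -0.01 at 30d. Median centring kept the falls of SIFa, Nplp1 and Nplp3 at 60d, added that of CCAP and called no rise. At 30d it kept the falls of SIFa, Nplp1 and Capa, called Nplp3, FMRFa and CCAP lower, and kept only Ptth among the rises. Of all 8127 genes it called 1298 lower and 287 higher at 60d, and 2934 lower and 667 higher at 30d. Quantile normalization kept every peptide gene call in both comparisons, rises included, and added the fall of CCAP in each. Of all 8121 genes it called 982 lower and 449 higher at 60d, and 2142 lower and 1182 higher at 30d. The deposited values had been scaled to a common trimmed mean. Among all genes the median change at 30d was 0.28 in the dimmest of 3 equal bins of mean signal, -0.05 in the middle and -0.17 in the brightest. Of the 27 peptide genes, 3 were in the dimmest bin (CCAP, ETH and Ptth), 11 in the middle and 13 in the brightest. Among the receptors and processing genes that passed, CCAP-R, Proc-R, CCHa1-R and svr were in the dimmest bin, and all of these rose at 30d.

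The 17 genes that passed in no comparison include well known brain peptides. Pdf, the transmitter of the clock neurons, read 516, 660 and 634 at 3d, 459, 489 and 583 at 30d, and 716, 512 and 526 at 60d. The ages overlapped, and the change at 60d was -0.05 (95% interval -0.43 to 0.32). NPF, known for feeding and reward, read 462, 824 and 752 at 3d, 959, 820 and 841 at 30d, and 1244, 786 and 917 at 60d. Its change at 60d, 0.55 ± 0.23 (adjusted p = 0.108), was the largest that did not pass in that comparison. The first 3d array was the lowest of the 9 for NPF and the first 60d array the highest. Across 18 alternatives the change ran from 0.11, with both of these arrays left out, to 0.71. The short neuropeptide F gene sNPF had a narrower interval, -0.22 to 0.40 around 0.09.

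CCAP, a cardioactive peptide also used at moulting, read 49.4, 83.6 and 77.1 at 3d, 52.3, 54.0 and 51.6 at 30d, and 57.5, 46.7 and 42.0 at 60d. The first 3d array lay among the later ones. Its change at 60d was -0.49 ± 0.20 (adjusted p = 0.0982), and it passed in 5 of 17 alternatives, among them the one without 3d replicate 1, where the change was -0.72 (adjusted p = 0.00831). Proc, or proctolin, which acts on muscle, had the largest change at 30d that did not pass, 0.67 ± 0.38 (adjusted p = 0.163). It read 47.3, 201 and 119 at 3d and 163 to 170 at 30d, and without the first 3d array the change was 0.11 (adjusted p = 0.645).

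Among the hormones of water balance, the diuretic hormones Dh31 and Dh44 had changes of -0.03 and 0.17 at 60d, and ITP, an antidiuretic hormone, of 0.10 (adjusted p = 0.931, 0.587 and 0.676). The glycoprotein hormone subunit Gpb5 was at 0.06 and the myoinhibitory precursor Mip at -0.04 (adjusted p = 0.869 and 0.916). The myosuppressin gene Ms had signals of 2508 to 3107 at 3d, 2738 to 3075 at 30d and 2086 to 3273 at 60d, and a change of -0.14 (adjusted p = 0.591). ETH, the ecdysis-triggering hormone made outside the brain in tracheal cells, read 50.3 to 64.0 at 3d, 66.7 to 77.5 at 30d and 52.6 to 79.4 at 60d, close to the filter value, and did not pass. For 20 of the 22 genes that did not pass at 60d, and for 18 of 19 at 30d, the 95% interval excluded a 2-fold change in either direction. Of the 3 genes below the filter, Lk (29.0 to 48.3) and Burs (10.9 to 24.7) were under it on all 9 arrays and amn (19.6 to 61.8) on all but 2.

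Of 36 named receptors of these peptides 21 had a probe set of their own, and 15 of these were tested. At 60d against 3d AkhR rose and NPFR fell, 2 of the 15, where 18.5% of all genes passed. At 30d CCAP-R, Proc-R, SIFaR and CCHa1-R rose, and NPFR and Dh31-R fell, 6 of the 15, where 42.3% of all genes passed. Between 30d and 60d limma passed 0, where 0.538% of all genes passed. Before adjustment 0 of the 15 had a p under 0.05, beside 797 genes higher and 438 lower of all 8171. NPFR, the receptor of NPF, read 136, 118 and 118 at 3d, 95.6, 96.7 and 84.5 at 30d, and 79.8, 89.3 and 84.5 at 60d. All 3d arrays were above all later arrays. The receptor fell by 0.55 ± 0.13 at 60d (adjusted p = 0.0163) and by 0.42 ± 0.13 at 30d (adjusted p = 0.0247), and both calls held with median centring and quantile normalization. The 30d call was lost without 3d replicate 3 or any 1 of the 30d arrays (adjusted p from 0.0556 to 0.108). At 60d the call held in 16 of 18 alternatives, and it was lost without 60d replicate 3 (adjusted p = 0.0651).

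AkhR, the receptor of Akh on fuel-storing tissue, read 65.4, 81.6 and 93.3 at 3d and 137, 107 and 112 at 60d. The arrays of these ages did not overlap, and the rise was 0.56 ± 0.17 (adjusted p = 0.0443), kept in 3 of 17 alternatives and, with single arrays left out, only without 3d replicate 3. Among the 60d arrays AkhR, like the fat body marker sum of 14051, 6420 and 10056, was highest on replicate 1 and lowest on replicate 2, and the part of that sum in the rise was not tested. CCAP-R rose by 0.71 ± 0.18 at 30d (adjusted p = 0.011), while its second, dimmer probe set changed by 0.36 (adjusted p = 0.131). Proc-R rose by 0.61 ± 0.19 (adjusted p = 0.0274), which did not pass with either scaling. Dh31-R fell by 0.44 ± 0.14 at 30d (adjusted p = 0.0269) in 1 probe set, and the other was at 0.09 (adjusted p = 0.647), so the probe sets of this gene disagree. Those of SPR, a receptor that did not pass, also disagreed at 30d (-0.27 in the one used and 0.71 in the other).

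Of 11 genes for cutting, amidating and releasing peptides, 10 had a probe set and 9 were tested, and dimm, a regulator of peptidergic cell identity, did not pass the filter. At 60d svr rose and 7B2 and Pal2 fell, 3 of the 9 against 18.5% of all genes, and at 30d svr rose and Fur2, 7B2 and Pal2 fell, 4 of the 9 against 42.3%. For 60d against 30d limma passed 0, against 0.538%. Before adjustment 0 of the 9 had a p under 0.05, beside 797 genes higher and 438 lower of all 8171. The median of the 9 was -0.07 at 60d and -0.20 at 30d. Among them 7B2, a helper of the prohormone convertase amon, read 2169, 2073 and 2225 at 3d, 1682, 1465 and 1476 at 30d, and 1852, 1276 and 1485 at 60d. The 3d arrays were above all others, and the falls were 0.50 ± 0.15 at 60d (adjusted p = 0.0424) and 0.49 ± 0.15 at 30d (adjusted p = 0.0272). With quantile normalization neither passed (adjusted p = 0.0604 and 0.0605).

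Pal2, an enzyme of the amidation step, fell by 0.54 ± 0.16 at 60d and by 0.46 ± 0.16 at 30d (adjusted p = 0.0344 and 0.0332), and with quantile normalization did not pass in either (adjusted p = 0.0658 and 0.115). The convertase amon itself had changes of -0.35 ± 0.14 and -0.29 ± 0.14 (adjusted p = 0.0966 and 0.103). Fur2, a furin-type protease, fell by 0.47 ± 0.14 at 30d (adjusted p = 0.0213). With 3d replicate 3 left out Fur2, 7B2, svr and Pal2 passed in neither comparison, and without 30d replicate 2 or 3 the same held for all 4 (adjusted p up to 0.134 where leaving out an array ended a call). Svr, a carboxypeptidase that trims cut peptides, rose from 31.8, 61.5 and 48.4 at 3d to 63.9, 82.1 and 76.9 at 60d, a change of 0.68 ± 0.21 (adjusted p = 0.0433). Its rise did not pass with median centring (adjusted p = 0.0883) or quantile normalization (adjusted p = 0.0975). Pal1 and Phm, the other amidating enzymes, and the vesicle proteins Cadps and IA-2 were between -0.07 and -0.03 at 60d and did not pass. A second probe set of Cadps, with a mean log2 signal of 9.27 against 9.45, was at -0.60 at 60d. At 30d it was at -0.56, where the first was at 0.14. A second, dimmer probe set of Phm was at 0.26 at 60d.

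**Figure D4:**
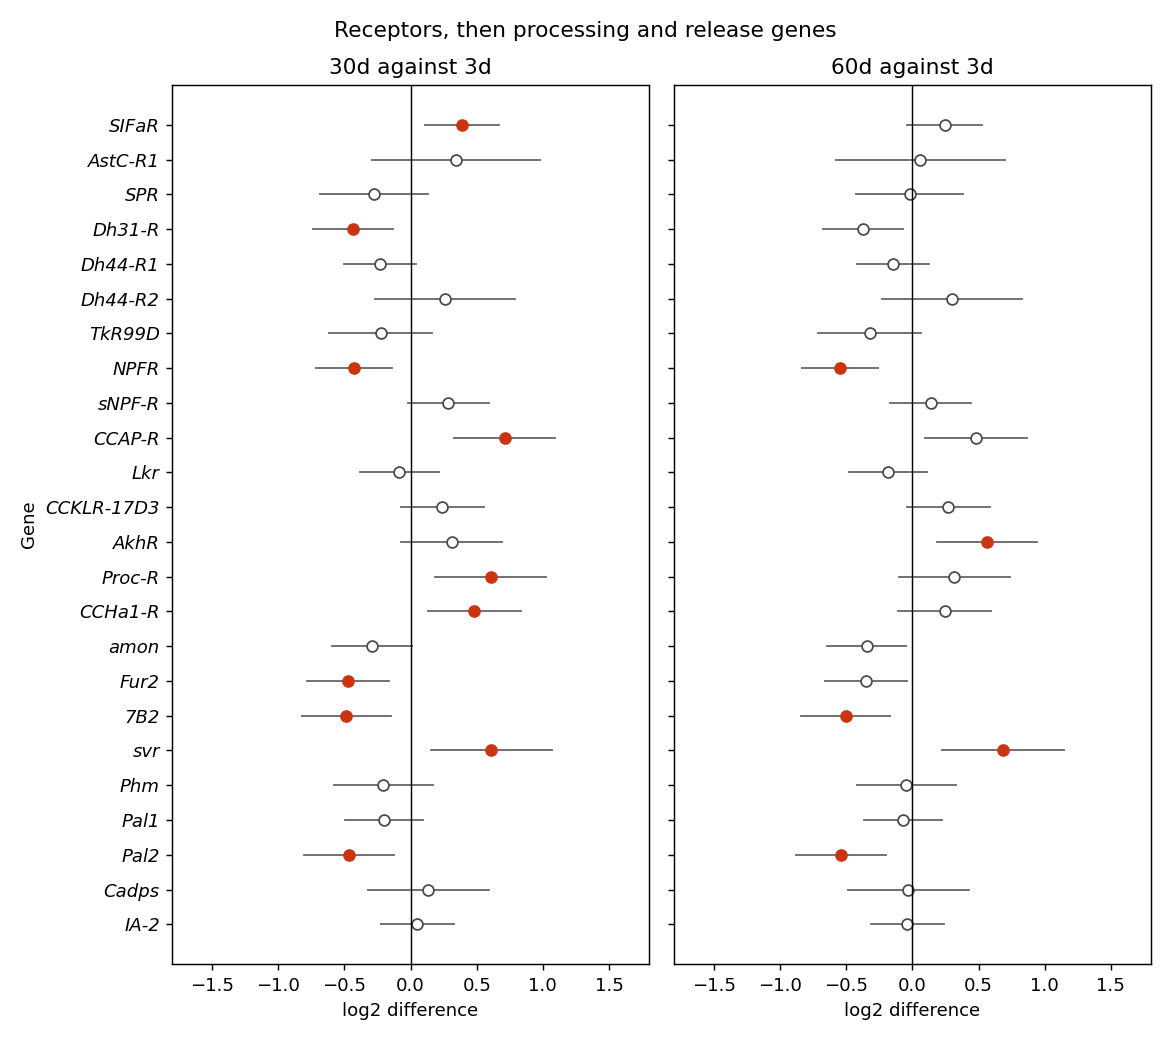
Log2 difference at 30d and 60d against 3d for the 15 receptors, then the 9 processing and release genes tested. Filled points passed, open points did not, and lines are 95% intervals. NPFR, 7B2 and Pal2 are filled below 0 and svr above 0 in both panels.

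Markers of other tissues also differed between ages, where 8.03% of all genes rose and 10.5% fell at 60d, and 21% rose and 21.3% fell at 30d. Of 6 glial markers tested 2 fell at 60d and 3 at 30d, with a summed signal of 7861 to 9620 at 3d, 5541 to 6261 at 30d and 5786 to 6942 at 60d. Of 7 haemocyte markers 1 rose and 3 fell at each of these ages, and of 6 retina markers 4 fell at each. The retina sum was 10468 to 11582 at 3d, 8793 to 9629 at 30d and 7362 to 8165 at 60d. No marker of these lists was at 0 on all arrays. SIFa, Nplp1 and NPFR were likewise lower at both later ages, and the part of these markers in their falls was not tested. Of the muscle markers 4 were tested, of which 1 rose at 60d and 3 at 30d, and of the gut markers 2, of which 1 rose at each age.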

How the data were processed

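RNA from 9 dissected brain samples was extracted with Trizol, and FL-Ovation was the labelling kit, per the labels' protocols. The authors deposited 1 linear signal intensity per probe set and array. GCRMA and MAS5 are named, without role or version, per the submitters' processing notes. The deposited intensities had a trimmed mean of 150.002 on every array and were not quantile normalized.

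From the 18952 probe sets, 183 controls were left out, and genes were named from the platform annotation and a RefSeq gene table (13647 probe sets with 1 gene, 402 with several, 4720 with none named). The probe set with the highest mean stood for a gene. Genes above 5.71 (the 40th percentile of log2(signal + 1)) on at least 3 arrays were kept. All 27 peptide genes kept were above it at more than 1 age, and 23 on all arrays. Group means for 3 ages were fitted with limma 3.58.1 in R 4.3.3 (lmFit, contrasts, eBayes, 6 residual and 5.51 prior degrees of freedom), two-sided, with Benjamini-Hochberg adjustment over 8171 genes and a threshold of 0.05. The procedure was tested on simulated data. Python 3.11.15 and matplotlib 3.10.9 made the figures. The number of arrays limits the precision.

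Peptide genes that passed in any comparison are given on every array, others by ranges and counts with the largest change that did not pass named, and the signals printed for further genes among the latter were chosen after their values were seen. Of the receptors and processing genes up to 4 that passed per direction are named, and tested receptors of a peptide that passed. The genes and lists were chosen with earlier results of these data known. Alternatives were quantile normalization, median centring, no filter or one at the 60th percentile, log2(signal + 32), the lowest-mean probe set, only the 6 arrays compared, the replicate number as a block, and arrays left out. For the peptide genes, with 1 probe set each, the lowest-mean probe set used the same signals as the main fit.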

Additional observations from a re-analysis of the deposited data

Results flagged for a closer look

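For 4 of the peptide genes the change from 30d to 60d differed from the change from 3d to 30d by limma's test of that difference. It was 1.19 for SIFa and 1.17 for Capa, and -1.15 for Eh and -0.997 for Ptth (adjusted p = 0.0316, 0.0427, 0.0387 and 0.0389). Of 17 alternatives 11 kept the call of SIFa, 8 each those of Capa and Eh, and of 16 for Ptth 7 did. Of all genes tested 18.4% passed this test.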

How the results depend on the processing

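No peptide gene that passed in a comparison changed sign there under any alternative. The 2 probe sets of the receptor Dh31-R differed in sign at 30d (-0.44 and 0.09), as did those of SPR (-0.27 and 0.71) and Cadps (0.14 and -0.56). At 60d those of SPR (-0.02 and 0.69), CCAP-R (0.48 and -0.09) and Phm (-0.05 and 0.26) did so. The number of peptide genes called at 60d against 3d (5, where 18.5% of all genes were called) was 2 with no filter (10.8%), 1 with only the 6 arrays compared (SIFa, 6.61%), 8 without replicate 1 of both 3d and 60d (51.1%), and 1 to 5 with single arrays left out (7.42% to 30.5%). At 30d against 3d (8, 42.3%) it was 14 without that pair of arrays (66%) and 2 to 11 with single arrays left out (19% to 55.8%). At 60d against 30d (0, 0.538%) it was 0 to 3 with single arrays left out (0.11% to 6.14%). For the difference between the intervals (4, 18.4%) it was 0 with no filter (0.0167%), 11 without that pair (44.7%) and 0 to 9 with single arrays left out (0% to 42.4%). Replicate numbers gave no sign of pairing the arrays. Correlations were taken on each array's deviations from the gene means of its age, which sum to 0 within an age. Between ages, these deviations had correlations of -0.33 to 0.14 for same-numbered arrays and of -0.55 to 0.57 for differently numbered ones. With the replicate number as a block the counts in these 4 comparisons were 2, 6, 0 and 2 (15.2%, 37.1%, 0.245% and 11.6%). The cause of these shifts was not tested, beyond the fewer arrays and the further genes that some alternatives bring. Quantile normalization, the 60th percentile filter, log2(signal + 32) and the lowest-mean probe set kept each count of peptide genes within 1.5 times. The last of these left the signals of the peptide genes as they were, since each had 1 probe set. Over all genes, 44 were called at 60d against 30d, 81 with quantile normalization, 73 with log2(signal + 32), 74 without that pair of arrays and 22 with no filter.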
